A study of Mus musculus with 9 samples.

Results

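The clustered protocadherins are the Pcdha, Pcdhb and Pcdhg genes of mouse chromosome 18. They were taken as every gene of the count table whose identifier carries, in the GENCODE M21 annotation of the GRCm38 genome, a symbol with any of these prefixes on that chromosome. The rule used no measured value. It gave 58 of the 47937 genes in the table, with 14 in the alpha cluster, 22 in the beta cluster and 22 in the gamma cluster. The gamma genes fall into 12 A-type, 7 B-type and 3 C-type members, and 2 of the alpha genes, Pcdhac1 and Pcdhac2, are C-type. All lie on the plus strand of chromosome 18 between positions 36930184 and 37841873.

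Total RNA was sequenced from mouse embryonic fibroblasts (MEFs), cultured connective tissue cells of the embryo, of 3 genotypes with 3 libraries each. The WT cells were a clone of MEFs with a conditional Eset1 allele, which both mutants share because they were derived from it. In S1S2 cells Suv39h1 and Suv39h2, and in G9Gl cells G9a (Ehmt2) and Glp (Ehmt1), had been disrupted with CRISPR/Cas9. These enzymes methylate histone H3 at H3K9, and of them Suv39h1 and Suv39h2 act mainly at constitutive heterochromatin and G9a and Glp mainly on euchromatin. Each mutant genotype was represented by a single clone selected for absent protein on western blots, so that genotype and clone cannot be told apart. The study's methods call the 3 libraries of a cell line biological replicates, without saying how they were separated, and the p-values measure the spread between these libraries of a clone. The question addressed here is whether the loss of either enzyme pair changed the transcripts of the clustered protocadherins, and whether the mutants differed from each other.

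Clustered protocadherins are cell adhesion molecules of the cadherin superfamily, known mainly from neurons, where different combinations of them on the cell surface allow neurites of the same cell to recognise each other. Each alpha and gamma variable exon has its own promoter and encodes an extracellular, a transmembrane and a short cytoplasmic part, and is spliced to constant exons shared by its whole cluster. Beta genes have no constant exons. Promoter choice is known to involve CTCF, cohesin, DNA methylation and Smchd1, and the C-type genes are known to be regulated differently from the other variable exons.

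In the annotation used here, 2860 exon bases were common to all 14 alpha genes and 2116 to all 22 gamma genes, so that a read from a constant exon does not tell which variable exon it was spliced to. Between 31.5 and 66.8% of the exon bases of a gamma gene were shared with another gene, against none in 20 of the 22 beta genes. Pcdhb21 and Pcdhb22 overlap by 455 bases. How reads from shared exons were divided is not given in the sources used here. Pcdhga9 had 0, 1 and 0 counts in the G9Gl libraries 1, 2 and 3, in which the gamma genes summed to 2307, 2283 and 2557 counts. An equal division of constant exon reads over the gamma genes would not leave a gene at 0. Reads that span the splice junction of a variable exon, or pair with it, can still carry constant exon sequence into the count of that gene.

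The libraries held between 21319778 and 32157623 counts, with the lowest totals in S1S2. A floor of 3 counts corresponded to 0.0923 to 0.141 CPM (counts scaled to the size of the library). In the S1S2 libraries Suv39h1 was at 38.3 to 44.2 CPM against 103 to 112 CPM in WT, and Suv39h2 was at 52.7 to 57.4 CPM against 33.2 to 34.4 CPM. In G9Gl libraries Ehmt2 was at 51.9 to 57.4 CPM against 113.9 to 131.7 CPM in WT, and Ehmt1 was at 48.6 to 51.8 CPM against 102.3 to 105.5 CPM. The lower Suv39h1, Ehmt2 and Ehmt1 fit their labels, while the Suv39h2 transcript was higher in the mutant. All 10 fibroblast markers were above the floor in every genotype.

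Of the 58 members, 26 had enough counts to be tested, namely 9 beta genes and 17 gamma genes (9 A-type, 5 B-type and 3 C-type). The other 32 members did not pass the filter, and 11 of these, all in the alpha cluster, had no counts at all. A member that passed only through the genotype in which it was high had to differ, so counts over the tested members are descriptions. A gene was called when edgeR's quasi-likelihood test gave an adjusted p of at most 0.01 over all 15540 genes tested and the fold change was at least 2. In S1S2 against WT 18 members were called, and 9% of all genes tested were called. They were 9 gamma genes called higher, against 4.66% of all genes, and 9 beta genes called lower, against 4.34%. In G9Gl against WT 21 members were called, against 10.2% of all genes. None was called higher, against 6.77% of all genes, and 8 beta and 13 gamma genes were called lower, against 3.4%. Between the mutants 20 members were called, against 13.1% of all genes. In G9Gl 7 beta genes were higher than in S1S2, against 7.97% of all genes, and 13 gamma genes were lower, against 5.08%.

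The median log2 fold change of the 26 tested members was 0.40 in S1S2 and -2.54 in G9Gl, where that of all genes tested was -0.003 and -0.007. The S1S2 median joined beta genes with a median of -4.45 and gamma A and B genes with a median of 1.24. In G9Gl the beta median was -2.53 and the gamma A and B median was -2.96. The 360 tested genes of chromosome 18 outside the clusters had medians of -0.022 in S1S2 and 0.020 in G9Gl. In S1S2 14 of the tested members were higher in every library than in any WT library and 10 were lower in every library, against 28.5% and 27.5% of all genes tested. In G9Gl none of the tested members was higher in this way and 22 were lower, against 27.3% and 25.5%. Between the mutants 8 tested members were higher in every G9Gl library than in any S1S2 library and 16 were lower, against 30.5% and 30.3%. Among the members left out by the filter, at a few counts each, Pcdhb4, Pcdhb6, Pcdhb7, Pcdhb10, Pcdhb11 and Pcdhga3 were also lower than WT in every S1S2 library, and Pcdhga3, Pcdhgb1 and Pcdhga4 in every G9Gl library, whereas Pcdhb9 and Pcdhb10 were higher than WT in every G9Gl library. With the limit on the adjusted p alone, 20 tested members passed in S1S2 (37.9% of all genes), 22 in G9Gl (35%) and 22 between the mutants (42.6%). Both contrasts use the same WT libraries, so that their values are given side by side only.

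**Figure D1:**
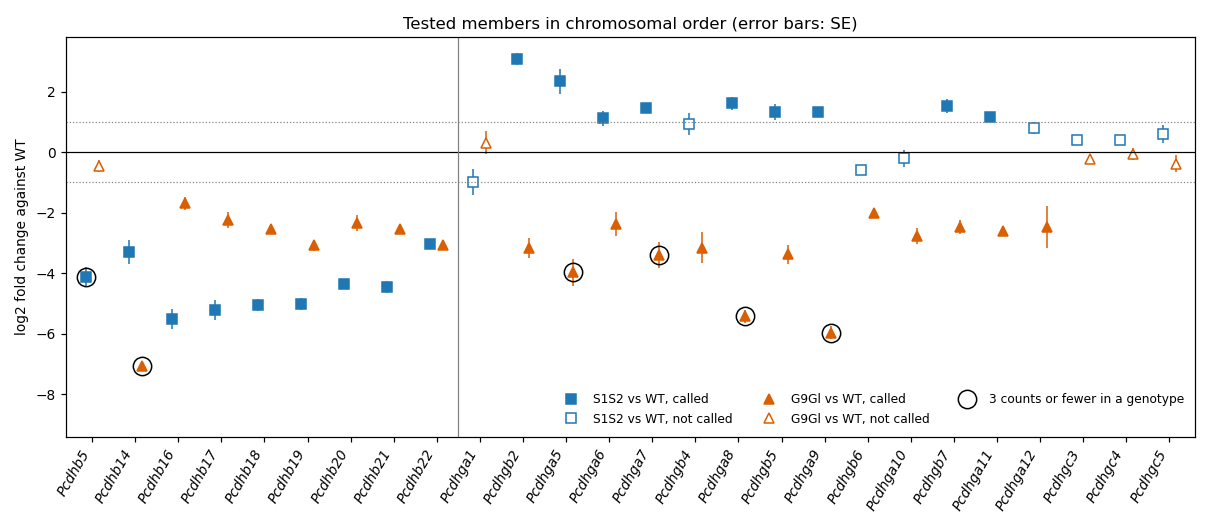
Log2 fold change against WT (vertical axis; error bars, SE over 3 against 3 libraries) of the 26 tested members in chromosomal order, with beta genes left of the vertical line and gamma genes right of it. The SE comes from log2 CPM with a prior count, so that at few counts it understates the error of the fitted value. Squares are S1S2 and triangles G9Gl, filled where called, circles mark values that rest on 3 counts or fewer in a genotype, and the dotted lines mark a fold change of 2. The 9 beta genes lie below zero in both mutants, and 9 gamma genes are filled above zero in S1S2 and below zero in G9Gl.

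The alpha cluster was not detected. WT libraries held 0 counts for its 14 genes together, S1S2 libraries held 3 and G9Gl libraries held 1. The 3 counts in S1S2, 2 on a Pcdha11 identifier (ENSMUSG00000007440) and 1 on Pcdha1, were all in library 1, and the count in G9Gl fell on Pcdha3 in library 2. A second identifier in the table, ENSMUSG00000102206, carries the same symbol Pcdha11 and had no counts. The C-type genes Pcdhac1 and Pcdhac2 had no counts in any library. No alpha gene had more than 3 counts in any library, so that no alpha value could be compared.

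Transcripts of the beta cluster fell in both mutants, and further in S1S2. The 22 beta genes summed to 36.9, 35.6 and 42.8 CPM in the WT libraries, to 2.57, 2.11 and 2.16 CPM in S1S2 and to 7.90, 8.22 and 7.96 CPM in G9Gl. The 3 genotypes did not overlap. The means were 38.4 ± 3.81 CPM in WT, 2.28 ± 0.253 CPM in S1S2 and 8.03 ± 0.173 CPM in G9Gl (SD, n = 3 each). The sum was thus 16.8-fold lower in S1S2 (log2 ratio -4.07, SE 0.121) and 4.79-fold lower in G9Gl (log2 ratio -2.26, SE 0.0828). It was 3.52-fold higher in G9Gl than in S1S2 (log2 ratio 1.81, SE 0.0915). No test was run on sums. In RNA from whole cultures, fewer cells that use a gene and less of its RNA per cell cannot be told apart.

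**Figure D2:**
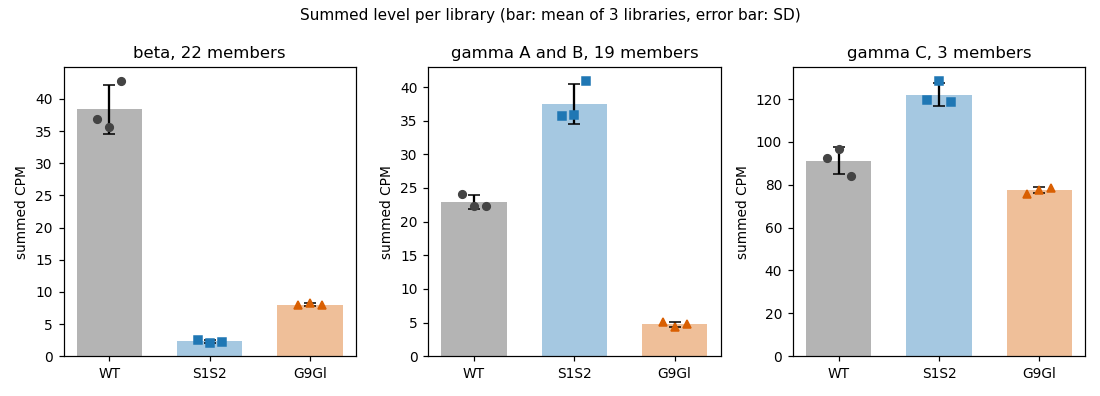
Summed CPM per library of the 22 beta, the 19 gamma A and B and the 3 gamma C genes in 3 panels, each with its own axis from 0, with points for libraries, bars for the mean of 3 libraries and error bars for the SD. The beta sums order as WT, G9Gl and S1S2, whereas the gamma A and B sums order as S1S2 (37.5 CPM), WT (22.9 CPM) and G9Gl (4.76 CPM).

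The beta members with most reads lie at the 3′ end of the cluster. Pcdhb22, the last of them, was at 9.81, 9.69 and 10.5 CPM in WT, 1.47, 1.02 and 1.18 CPM in S1S2 and 1.09, 1.04 and 1.44 CPM in G9Gl. Both mutants lay far below WT and overlapped each other. It fell by 3.04 on the log2 scale in S1S2 (SE 0.149, adjusted p = 5.46e-11) and by 3.06 in G9Gl (SE 0.141, adjusted p = 1.84e-11), and the mutants differed by -0.02 (SE 0.2, adjusted p = 0.966, edgeR). Its neighbour Pcdhb21 was at 7.91, 6.71 and 8.02 CPM in WT, 0.46, 0.292 and 0.282 CPM in S1S2 and 1.44, 1.08 and 1.34 CPM in G9Gl. Here the 3 genotypes were separate. The log2 fold change was -4.45 in S1S2 (SE 0.206, adjusted p = 2.3e-11), while in G9Gl it was -2.55 (SE 0.144, adjusted p = 5.23e-10), and Pcdhb21 was higher in G9Gl than in S1S2 by 1.90 (SE 0.224, adjusted p = 2.03e-05).

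Pcdhb17 was at 5.14, 4.69 and 6.35 CPM in WT, 0.23, 0.0729 and 0.141 CPM in S1S2 and 0.807, 1.15 and 1.47 CPM in G9Gl. Pcdhb16 was at 3.6, 3.31 and 5.41 CPM in WT, 0.046, 0.0729 and 0.141 CPM in S1S2 and 1.19, 1.4 and 1.21 CPM in G9Gl. Both genes followed the order of the cluster sum without overlap between genotypes. Pcdhb16 had the lowest log2 fold change in S1S2 of the tested members, at -5.52 (SE 0.331, adjusted p = 1.84e-09), against -1.69 in G9Gl (SE 0.227, adjusted p = 4.08e-06). With 6 counts over the S1S2 libraries, the pooled ratio of WT over S1S2 had a 95% counting interval of 21.9 to 132. It overlapped that of Pcdhb17, 20.5 to 79.8, so that the rank is within counting error. The gap between the mutants was 3.82 (SE 0.26, adjusted p = 1.88e-06). For Pcdhb17 the log2 fold changes were -5.20 in S1S2 and -2.23 in G9Gl, with a gap of 2.97 (SE 0.386, adjusted p = 1.2e-05).

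Pcdhb18, Pcdhb19 and Pcdhb20 were likewise lowest in S1S2. Pcdhb18 was at 2.65 to 3.09 CPM in WT, 0.047 to 0.109 CPM in S1S2 and 0.457 to 0.575 CPM in G9Gl, Pcdhb19 was at 3.38 to 4.32, 0.0729 to 0.141 and 0.359 to 0.562 CPM, and Pcdhb20 was at 2.05 to 2.26, 0.0729 to 0.141 and 0.261 to 0.503 CPM. Their log2 fold changes were -5.04, -5.02 and -4.35 in S1S2 and -2.53, -3.08 and -2.34 in G9Gl. The S1S2 libraries together held 6, 8 and 7 counts, and WT exceeded S1S2 34.4-fold (95% counting interval 15.6 to 94.6), 33.7-fold (16.9 to 78.7) and 21.4-fold (10.2 to 53.8). The gaps between the mutants were 2.51, 1.94 and 2.01, with adjusted p = 0.000158, 0.00176 and 0.00232. The gaps of Pcdhb19 and Pcdhb20 lost their call without S1S2 replicate 2 (adjusted p = 0.0151 and 0.0169), that of Pcdhb20 also without G9Gl replicate 2 (adjusted p = 0.0104).

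Of the 15 beta genes from Pcdhb1 to Pcdhb15 only Pcdhb5 and Pcdhb14 were tested, and they went apart in G9Gl. Pcdhb5 had 22, 27 and 27 counts in WT, 0, 2 and 1 in S1S2 and 13, 17 and 21 in G9Gl. G9Gl libraries overlapped WT, and S1S2 lay below both. Over pooled counts WT exceeded S1S2 19.03-fold (95% counting interval 6.27 to 94.3; adjusted p = 7.57e-06), and G9Gl exceeded S1S2 13.8-fold (4.45 to 69.0; adjusted p = 4.5e-05). Against WT the log2 fold change in G9Gl was -0.47 (SE 0.194, adjusted p = 0.229). Pcdhb14, in contrast, had 20, 15 and 21 counts in WT, 1, 3 and 0 in S1S2 and none in G9Gl. It was at least 17.3-fold lower in G9Gl than in WT (adjusted p = 1.31e-05) and fell by 3.30 on the log2 scale in S1S2 (SE 0.404, adjusted p = 0.000275; log2 -4.44 without S1S2 replicate 2). The mutants, with 4 and 0 counts, could not be told apart at this depth (adjusted p = 0.0536).

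The other 13 beta genes did not pass the filter, with at most 15 counts in any library. Pcdhb7 had 4, 6 and 8 counts in WT, none in S1S2 and 14, 12 and 6 in G9Gl. Pcdhb9 had 4, 2 and 5 counts in WT, 0, 2 and 0 in S1S2 and 9, 15 and 5 in G9Gl. Over pooled counts G9Gl exceeded WT 1.92-fold for Pcdhb7 (95% counting interval 1.04 to 3.63) and 2.84-fold for Pcdhb9 (1.38 to 6.31). These intervals cover counting error only, and both genes were named after their values were seen. Pcdhb11 had 7, 3 and 8 counts in WT, none in S1S2 and 4, 1 and 0 in G9Gl, the opposite direction in G9Gl. In S1S2 3 of the 22 beta genes had more than 3 counts in at least 1 library, against 18 in WT and 14 in G9Gl.

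Split at this point of the cluster, which was chosen after the values were seen, Pcdhb1 to Pcdhb15 summed to 2.49 CPM in WT, 0.180 CPM in S1S2 and 1.77 CPM in G9Gl, and Pcdhb16 to Pcdhb22 to 35.9, 2.10 and 6.26 CPM. The first stretch was 13.8-fold lower in S1S2 and 1.40-fold lower in G9Gl, and the second was 17.1-fold and 5.74-fold lower. The counts of the first stretch in the S1S2 libraries were 1, 11 and 2, so that its ratio there rests mostly on library 2. Pcdhb16 to Pcdhb22 made up 93.5% of beta CPM in WT, 91.6% in S1S2 and 78.0% in G9Gl. Per kilobase of exon not shared with another gene, the level of the 22 beta genes rose along the cluster from 5′ to 3′ in WT with a Spearman rho of 0.80, against 0.67 in S1S2 and 0.54 in G9Gl. These values describe genes of the same libraries and have no test.

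**Figure D3:**
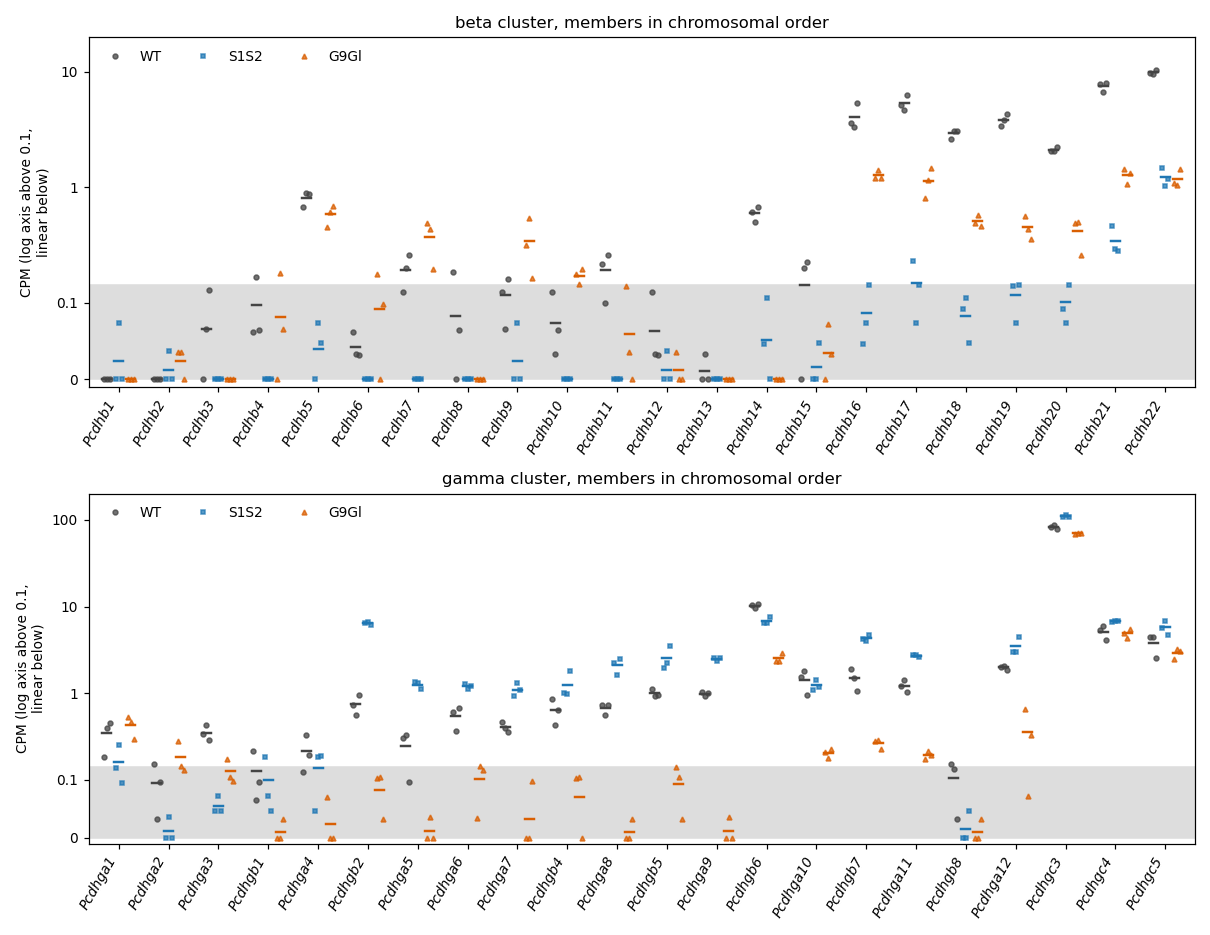
CPM of each beta gene (upper panel) and gamma gene (lower panel) in chromosomal order, on an axis that is logarithmic above 0.1 and linear below, with points for libraries, dashes for means of 3 and a grey band up to the highest 3-count floor of 0.141 CPM. S1S2 points of most beta genes lie in the band, G9Gl points of many gamma A and B genes lie in or near it, and Pcdhgc3 stands highest in all 3 genotypes.

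The gamma cluster held most of the reads of the family, and the sum of its A and B genes was higher than WT in S1S2 and lower in G9Gl. The 19 A and B genes summed to 24.1, 22.2 and 22.3 CPM in WT, to 35.7, 35.9 and 40.9 CPM in S1S2 and to 5.12, 4.35 and 4.798 CPM in G9Gl. The genotypes did not overlap. Against WT the sum was 1.64-fold higher in S1S2 (log2 ratio 0.71, SE 0.074) and 4.81-fold lower in G9Gl (log2 ratio -2.27, SE 0.0785), and S1S2 exceeded G9Gl 7.88-fold. Of the 14 tested A and B genes, 9 were called higher in S1S2 and lower in G9Gl, namely Pcdhgb2, Pcdhga5, Pcdhga6, Pcdhga7, Pcdhga8, Pcdhgb5, Pcdhga9, Pcdhgb7 and Pcdhga11, a pattern shown by 0.566% of all genes tested. Against a fold of 2 as the null (glmTreat), only Pcdhgb2, Pcdhga5 and Pcdhgb7 kept the call in S1S2, and the other 6 had adjusted p between 0.0762 and 1.0. All 9 were also called between the mutants. Genes called in opposite directions against the same WT must differ there, so this adds no support. Pcdhgb4, Pcdhgb6, Pcdhga10 and Pcdhga12 were called in G9Gl and between the mutants only, and Pcdhga1 was called in no contrast.

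Pcdhgb2, a B-type gene in the 5′ part of the array, had the highest log2 fold change of the tested members in S1S2. It was at 0.738, 0.562 and 0.967 CPM in WT, 6.39, 6.71 and 6.11 CPM in S1S2 and 0.105, 0.108 and 0.0326 CPM in G9Gl. No genotype overlapped another. The log2 fold change was 3.08 in S1S2 (SE 0.209, adjusted p = 8.25e-10), while in G9Gl it was -3.16 (SE 0.33, adjusted p = 8.01e-06), with 3, 3 and 1 counts in the G9Gl libraries. Pcdhgb2 made up 3.31% of the A and B sum in WT, 17.2% in S1S2 and 1.74% in G9Gl. Per kilobase of own exon its mean was 0.274 CPM in WT, 2.32 CPM in S1S2 and 0.0296 CPM in G9Gl.

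Pcdhgb7 was at 1.91, 1.49 and 1.06 CPM in WT, 4.23, 4.05 and 4.66 CPM in S1S2 and 0.281, 0.287 and 0.228 CPM in G9Gl. It rose by 1.53 on the log2 scale in S1S2 (SE 0.24, adjusted p = 4.99e-06) and fell by 2.47 in G9Gl (SE 0.246, adjusted p = 2.85e-06). Pcdhga11 was at 1.03 to 1.42 CPM in WT, 2.59 to 2.77 CPM in S1S2 and 0.175 to 0.215 CPM in G9Gl. Its log2 fold changes were 1.15 (SE 0.13, adjusted p = 9.76e-05) and -2.61 (SE 0.141, adjusted p = 1.29e-06). Pcdhgb5 was at 0.926 to 1.11 CPM in WT, 1.93 to 3.53 CPM in S1S2 and 0.0326 to 0.14 CPM in G9Gl, with log2 fold changes of 1.34 and -3.38 (adjusted p = 0.000332 and 9.06e-06). In these 3 genes the libraries of each genotype stood apart from those of the others.

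Some A-type genes were all but undetected in G9Gl. Pcdhga9 was at 1.05, 0.926 and 0.999 CPM in WT, 2.57, 2.37 and 2.54 CPM in S1S2 and 0, 0.0359 and 0 CPM in G9Gl. It rose by 1.32 on the log2 scale in S1S2 (SE 0.06, adjusted p = 7.27e-05), and with 1 count in G9Gl the pooled ratio of WT over G9Gl was 86.2 (95% counting interval 15.1 to 3443). Pcdhga8 was at 0.738, 0.562 and 0.741 CPM in WT, 2.25, 1.6 and 2.49 CPM in S1S2 and 0, 0 and 0.0326 CPM in G9Gl. It rose by 1.61 in S1S2 (SE 0.22, adjusted p = 8.52e-05), with a ratio of WT over G9Gl of 59.4 (10.3 to 2380).

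Pcdhga5 and Pcdhga7 had 1 and 3 counts over the G9Gl libraries, in library 2 alone and in library 3 alone, so that these values rest on a single library. Pcdhga5 was at 0.0967 to 0.331 CPM in WT and 1.13 to 1.33 CPM in S1S2 (a log2 difference of 2.34 with SE 0.412, adjusted p = 5.56e-05), and WT exceeded G9Gl 21.3-fold (95% counting interval 3.46 to 879; adjusted p = 0.0014). Pcdhga7 was at 0.355 to 0.461 CPM in WT and 0.919 to 1.31 CPM in S1S2 (a log2 difference of 1.45 with SE 0.168, adjusted p = 0.00251), and WT exceeded G9Gl 11.7-fold (3.73 to 59.5; adjusted p = 0.000483). Its call in S1S2 was lost without WT replicate 3 or S1S2 replicate 2, with an adjusted p of up to 0.0227. Pcdhga6 was at 0.364 to 0.677 CPM in WT, 1.13 to 1.29 CPM in S1S2 and 0.0351 to 0.144 CPM in G9Gl, with log2 fold changes of 1.12 (SE 0.248, adjusted p = 0.00539) and -2.37 (SE 0.404, adjusted p = 0.00044). The call of Pcdhga6 in S1S2 was the least stable, being lost in DESeq2 (adjusted p = 0.0256) and in 5 of 6 fits that left out a WT or S1S2 library (adjusted p of up to 0.0345).

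Pcdhgb6, the B-type gene with the highest CPM in WT, was not called in S1S2. It was at 10.4, 9.59 and 10.8 CPM in WT, 6.48, 6.45 and 7.67 CPM in S1S2 and 2.35, 2.33 and 2.9 CPM in G9Gl. It was lower in both mutants without overlap, by a log2 fold change of -0.58 in S1S2 (SE 0.0958, adjusted p = 0.000303), which is under the 2-fold threshold, and of -2.01 in G9Gl (SE 0.113, adjusted p = 3.89e-10). In WT it gave 44.9% of the A and B sum, in S1S2 18.3% and in G9Gl 53.4%. Without it, the remaining 18 A and B genes summed to 12.6 CPM in WT, 30.6 CPM in S1S2 and 2.23 CPM in G9Gl, which is 2.42-fold higher and 5.67-fold lower than WT. Leaving it out was decided after its values were seen.

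**Figure D4:**
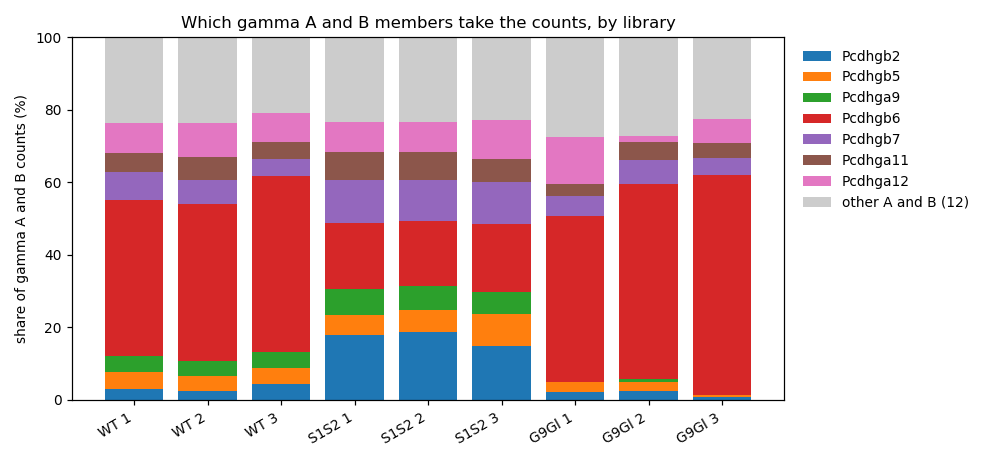
Share of the gamma A and B counts (percent, from 0 to 100) taken by 7 named genes and by the other 12 together, in each of the 9 libraries. Pcdhgb6 takes 43.0 to 48.5% in WT, 17.97 to 18.8% in S1S2 and 45.9 to 60.5% in G9Gl, and Pcdhgb2 takes 14.96 to 18.7% in S1S2 against at most 4.33% in WT and 2.48% in G9Gl.

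Pcdhga12, Pcdhga10 and Pcdhgb4 were called against WT in G9Gl and not in S1S2. Pcdhga12 was at 2.03, 2.08 and 1.84 CPM in WT, 2.99, 2.95 and 4.47 CPM in S1S2 and 0.667, 0.0718 and 0.326 CPM in G9Gl, and fell by 2.46 in G9Gl (SE 0.691, adjusted p = 2.85e-05; log2 -3.25 without G9Gl replicate 1). Pcdhga10 was at 0.967 to 1.79 CPM in WT, 1.1 to 1.42 CPM in S1S2 and 0.18 to 0.228 CPM in G9Gl, and fell by 2.76 (SE 0.263, adjusted p = 2.99e-06). Pcdhgb4 was at 0.43 to 0.861 CPM in WT, 0.984 to 1.79 CPM in S1S2 and 0 to 0.108 CPM in G9Gl, and fell by 3.15 (SE 0.509, adjusted p = 0.000308; log2 -2.55 without G9Gl replicate 3). In S1S2 the log2 fold changes of the 3 genes were 0.80, -0.20 and 0.94, with adjusted p = 0.0178, 0.543 and 0.0383.

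On mean CPM the first A-type genes at the 5′ end were lowest in S1S2, but they shared no full order. Pcdhga1 and Pcdhga2 were highest in G9Gl, and Pcdhga3 was highest in WT. Of these genes only Pcdhga1 was tested, and it was called in no contrast. Pcdhga1 was at 0.185, 0.397 and 0.451 CPM in WT, 0.138, 0.255 and 0.0941 CPM in S1S2 and 0.526, 0.467 and 0.294 CPM in G9Gl. The WT libraries overlapped both mutants, and the log2 fold changes were -0.99 in S1S2 (SE 0.43, adjusted p = 0.128) and 0.31 in G9Gl (adjusted p = 0.566), with a gap between the mutants of 1.31 (SE 0.36, adjusted p = 0.0385). It was the only tested member with a positive log2 fold change in G9Gl. Pcdhga2 and Pcdhga3 did not pass the filter. Pcdhga3 had 11, 13 and 9 counts in WT, 1, 2 and 1 in S1S2 and 5, 3 and 3 in G9Gl, and Pcdhga2 had 5, 1 and 3 counts, then 0, 1 and 0, and 8, 4 and 4. Together Pcdhga1 to Pcdhga3 summed to 0.791 CPM in WT, 0.230 CPM in S1S2 and 0.741 CPM in G9Gl, a grouping made after the values were seen. In G9Gl this sum joins Pcdhga3, lower than WT in every library, with Pcdhga1 and Pcdhga2, higher than WT on average.

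The C-type gamma genes stayed within 2-fold of WT in both mutants and none was called. Pcdhgc3, at the 3′ end of the array, was at 82.6, 86.3 and 77.7 CPM in WT, 107.2, 114.8 and 107.1 CPM in S1S2 and 68.4, 70.1 and 70.1 CPM in G9Gl. The genotypes did not overlap. Its log2 fold change was 0.42 in S1S2 (SE 0.0553, adjusted p = 1.6e-06), while in G9Gl it was -0.24 (SE 0.0458, adjusted p = 0.000559), differences that passed the p-value limit but not the fold limit. The gap between the mutants was -0.66 (SE 0.0351, adjusted p = 3.63e-09). The antisense gene BC037039, which overlaps Pcdhgc3 on the minus strand, had means of 0.340, 0.570 and 0.459 CPM and was called in no contrast.

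Pcdhgc4 was at 5.29, 6.02 and 4.09 CPM in WT, 6.62, 6.82 and 6.77 CPM in S1S2 and 4.95, 4.31 and 5.48 CPM in G9Gl. Its log2 fold changes were 0.39 in S1S2 (SE 0.162, adjusted p = 0.0258) and -0.06 in G9Gl (adjusted p = 0.758). Pcdhgc5 was at 4.46, 4.4 and 2.55 CPM in WT, 5.7, 6.78 and 4.75 CPM in S1S2 and 2.46, 3.2 and 3.1 CPM in G9Gl, with log2 fold changes of 0.60 (SE 0.299, adjusted p = 0.0139) and -0.38 (SE 0.286, adjusted p = 0.136). For both genes G9Gl overlapped WT. The gap of Pcdhgc5 between the mutants, -0.99 (SE 0.187, adjusted p = 0.00043), lay just under the 2-fold limit.

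The make-up of the gamma cluster therefore differed between genotypes. Pcdhgc3 gave 72.1% of gamma CPM in WT (70.9 to 72.8% over the libraries), 68.7% in S1S2 (67.1 to 69.9%) and 84.7% in G9Gl (84.0 to 85.5%). The A and B genes gave 20.1% in WT, 23.5% in S1S2 and 5.79% in G9Gl. Beta genes made up 25.2% of the summed CPM of all 58 members in WT, 1.41% in S1S2 and 8.90% in G9Gl. The sum over all members was 152 ± 2.72 CPM in WT, 162 ± 4.25 CPM in S1S2 and 90.2 ± 1.28 CPM in G9Gl (SD, n = 3 each). In S1S2 the sum was thus 1.06 times that of WT, while its beta part was lower and both gamma parts were higher. From WT to S1S2 the beta part went from 38.4 to 2.28 CPM and gamma A and B from 22.9 to 37.5 CPM. The largest rise was that of gamma C, from 91.2 to 122.2 CPM. Shares depend on how constant exon reads were assigned, which was not tested.

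Compared per kilobase of own exon, a measure that still counts shared exon reads assigned to the gene, the highest members in WT were Pcdhgc3 at 24.3, Pcdhgb6 at 4.0003, Pcdhb21 at 1.78, Pcdhb22 at 1.62 and Pcdhgc4 at 1.48 CPM per kb. In S1S2 Pcdhgc3 was followed by Pcdhgb6 at 2.68, Pcdhgb2 at 2.32, Pcdhgc4 at 1.94 and Pcdhgb7 at 1.66, with Pcdhb22 at 0.199 and Pcdhb21 at 0.0811 CPM per kb. In G9Gl Pcdhgc3 at 20.6 was followed by Pcdhgc4 at 1.41, Pcdhgb6 at 0.986 and Pcdhgc5 at 0.634, with Pcdhb21 at 0.302 CPM per kb. Pcdhgc3 was first in all 3 genotypes. Along the 19 A and B genes from 5′ to 3′, the level per kb had a Spearman rho with position of 0.63 in WT, 0.53 in S1S2 and 0.12 in G9Gl, given as a description.

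Genes around the clusters had medians near zero. Of 65 other genes inside the span or within 500 kb of it, 31 were tested, and the median of their log2 fold changes was 0.07 in S1S2 and 0.06 in G9Gl. In S1S2 3 were called higher and none lower, against 9% of all genes called, and in G9Gl 2 were called higher and none lower, against 10.2%. Hbegf, which encodes a ligand of the EGF receptor, rose by 1.94 in S1S2 (10.05 to 38.4 mean CPM). Arap3 had 14 counts in WT and 148 in G9Gl, an 11.4-fold pooled ratio (95% counting interval 6.58 to 21.4). Pcdh1, a non-clustered protocadherin, had 1 count in WT, 20 in S1S2 and 716 in G9Gl, with pooled ratios to WT of 26.6 (4.26 to 1103) and 772 (138 to 30538). Inside the span 3 genes were tested. Slc25a2 was called higher in S1S2 (log2 fold change 1.27, adjusted p = 0.00622), a call lost in DESeq2, under the replicate block and without any single WT or S1S2 library, while Taf7, between the beta and gamma genes, had log2 fold changes of 0.14 and -0.28.

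**Figure D5:**
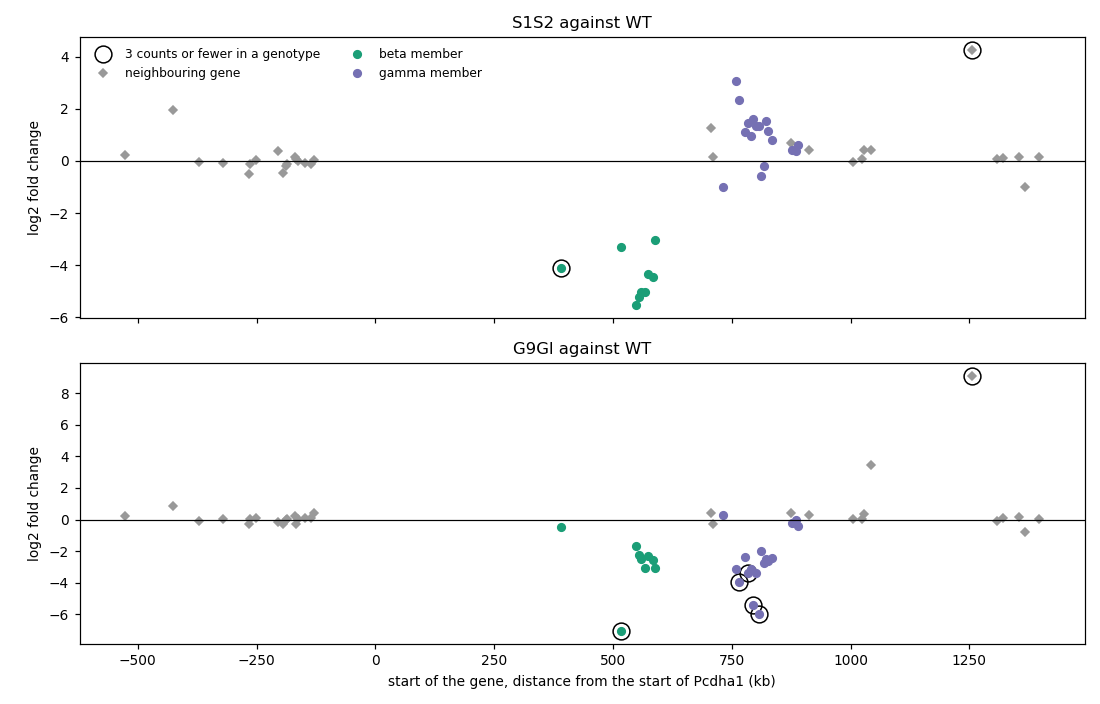
Log2 fold change against WT (vertical axis) of the tested members and of the 31 tested genes around them by distance of the gene start from that of Pcdha1 (horizontal axis, kb), for S1S2 (upper panel) and G9Gl (lower panel), with circles around values that rest on 3 counts or fewer in a genotype. Most members lie away from zero, whereas most genes on either side lie near it, with Pcdh1, Arap3 and Hbegf as called exceptions.

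Few genes that act on the clusters or with their products were called, which is also true of all genes tested. None of 15 genes of chromosome architecture (CTCF, cohesin and its regulators) was called in any contrast. The share of all genes called was 9% in S1S2, 10.2% in G9Gl and 13.1% between the mutants. With the limit on the adjusted p alone, 9 of these 15 passed in S1S2 (3 higher and 6 lower, against 37.9% of all genes) and 9 in G9Gl (1 higher and 8 lower, against 35%). Ctcf was at 152.6 CPM in WT, 152.3 CPM in S1S2 and 128.4 CPM in G9Gl, with log2 fold changes of -0.00 (adjusted p = 0.967) and -0.25 (adjusted p = 8.4e-05), the latter without overlap between libraries. Of 21 silencing genes 1 was called against WT, where 9% of all genes were called in S1S2 and 10.2% in G9Gl. This was Atf7ip, a partner of Setdb1, which was higher in S1S2 by 1.03 (0.999 without WT replicate 3). Atf7ip was also called lower in G9Gl than in S1S2, by -1.06, as was Tasor by -1.002, a call lost under several alternatives. The log2 fold changes of Smchd1, a chromatin protein that silences the clusters, were -0.15 (adjusted p = 0.0125) and -0.32 (adjusted p = 1.33e-05), with both mutants lower than WT in every library. None of 7 genes for cleavage of protocadherins at the membrane was called. Of 13 tested genes for signalling from them only Ptk2b, a focal adhesion kinase, was called, higher in S1S2 by 1.64 and in G9Gl by 2.76. In lists this short both counts are near the share of all genes called.

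Of 13 non-clustered protocadherins, with Cdhr1 among them, 7 were tested, and 4 were called in S1S2, against 9% of all genes. Pcdh10 and Pcdh17 passed the filter only through S1S2 and Pcdh1 only through G9Gl, so that they had to differ there. These counts are therefore descriptions. Pcdh1, Pcdh10 and Pcdh17 were higher and Pcdh9 was lower by 3.91. Pcdh10 had no counts in WT and was at least 69.2-fold higher in S1S2, and Pcdh17, with 1 count in WT, had a pooled ratio of 210 (95% counting interval 37.2 to 8359). In G9Gl 2 were called, against 10.2% of all genes, Pcdh1 higher and Pcdh9 lower by 1.34. Of 6 tested classical and related cadherins 2 were called in S1S2, against 9% of all genes, with Cdh13 higher by 1.20 and Cdh11 lower by 2.33. In G9Gl 2 were called, against 10.2%. There Cdh11 fell by 2.07, and Cdh5, with no counts in WT, was at least 31.6-fold higher. Cdh5 passed the filter only through G9Gl. Cdh3, called in neither mutant against WT, was higher in G9Gl than in S1S2 by 1.12.

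Markers of several cell types moved with the genotypes, and their part in the protocadherin values was not tested. Summed fibroblast markers were at 11136 to 12753 CPM in WT, 8395 to 8463 CPM in S1S2 and 8887 to 9754 CPM in G9Gl. In S1S2 5 of the 10 were called lower, against 4.34% of all genes, with Col3a1 at a log2 fold change of -3.01. In G9Gl 2 were called lower, against 3.4%, and Thy1 was called higher by 2.94, against 6.77%. The 10 neuron markers, from cells in which clustered protocadherins are best known, summed to 25.03 to 27.2 CPM in WT, 37.9 to 42.3 CPM in S1S2 and 22.3 to 29.8 CPM in G9Gl, and Rbfox3 was at 0 in every library. Of the 10, 8 were at or under the floor in WT and in S1S2 but 4 in G9Gl, where Snap25, Syt1, Elavl4 and Dcx, at 0 in WT and S1S2, had counts. Of these, Tubb3 held most of the sum, with means of 24.9, 39.1 and 21.7 CPM, and its log2 fold change in S1S2 was 0.65 (adjusted p = 1.89e-05), under the 2-fold limit. Map2 fell by 1.73 in S1S2, a call lost without WT replicate 3, S1S2 replicate 1 or S1S2 replicate 2, and Stmn2, with 5 counts in WT, had a pooled ratio of 47.9 (95% counting interval 20.2 to 149) in G9Gl.

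The 6 epithelium markers summed to 2.45 to 3.29 CPM in WT, 24.5 to 28.5 CPM in S1S2 and 10.2 to 15.8 CPM in G9Gl, with Krt8 (5.03) and Krt19 (3.197) called higher in S1S2 and Krt19 (2.53) in G9Gl on the log2 scale. The 5 endothelium markers summed to at most 0.193 CPM in WT, 1.55 to 1.70 CPM in S1S2 and 0.790 to 2.35 CPM in G9Gl, with Kdr called in S1S2, Cdh5 called in G9Gl and Emcn at 0. No glia marker (sum at most 3.67 CPM, Olig2 and Aqp4 at 0) was called against WT. Of the neuron markers 3 were tested, and of the epithelium, endothelium and glia markers 2 each. Of all genes 4.66% were called higher in S1S2 and 6.77% in G9Gl.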

How the data were processed

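Stranded total RNA libraries, depleted of ribosomal RNA and read as 75-base pairs, were trimmed with cutadapt and aligned to GRCm38 with STAR 2.5.2b by the authors, who deposited raw counts per gene from TEtranscripts. The tools and build come from the study's methods and the submitters' processing notes, which also name DESeq2. The annotation release, the strand setting and the division of reads from shared exons are not given in the sources used here.

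From the deposited counts, gene symbols and positions were taken from GENCODE M21, which held 47310 of 47937 identifiers. Genes without enough counts were removed by edgeR's filterByExpr (15540 tested, 21449 without counts). A fit of all 9 libraries with a coefficient per genotype and TMM scaling (factors 0.981 to 1.03) was tested with the quasi-likelihood test of edgeR 4.0.16 in R 4.3.3, with Benjamini-Hochberg adjustment over all genes tested and calls at adjusted p up to 0.01 with a change of 2-fold or more (figures the study uses too, where adjustment of P is not stated). Log2 fold changes are from this fit. The SE is that of the difference of mean log2 CPM (prior count 2) over 3 against 3 libraries. The prior count shrinks this difference, so that at few counts the SE understates the error of the fitted log2 fold change. The procedure was tested on simulated data. A genotype at 0 was set to 3 counts over its libraries for a bound, and ratios of pooled counts have exact 95% intervals, which cover counting error only. Every pair of libraries within a genotype differed by more than counting noise (chi-square per degree of freedom 2.68 to 25.6).

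Members, gene lists and splits were chosen with earlier results of these data known, and no list was tested. Named were members called in any contrast, the 3 tested members of each cluster with the highest CPM, the C-type members, called genes within 500 kb and called genes of the lists. Other members were named after their values were seen. Replicate numbers did not pair the libraries: the correlations of same-numbered deviations were 0.018, 0.023 and 0.103 for S1S2 with WT, -0.017, 0.124 and 0.021 for G9Gl with WT and -0.069, -0.027 and -0.067 for G9Gl with S1S2. Alternatives were DESeq2 1.42.0, other filters and thresholds, glmTreat, equal depth, a chromosome 18 median, a replicate block and leaving out each library. No sequence of a member is shown. A further marker list is not reported here. Scripts also used limma 3.58.1, Python 3.11.15, pandas 2.3.3, scipy 1.17.1 and matplotlib 3.10.9.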

Additional observations from a re-analysis of the deposited data

Results flagged for a closer look

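9 gamma genes stood out because they were called higher than WT in S1S2 and lower than WT in G9Gl. They were also called between the mutants, but this selection fixes a difference there, so that call adds no support. Of all genes tested 0.566% were called in these opposite directions. For 6 of the 9, Pcdhga6, Pcdhga7, Pcdhga8, Pcdhgb5, Pcdhga9 and Pcdhga11, the call in S1S2 was lost with glmTreat against a fold of 2. Between the mutants, G9Gl over S1S2, the fitted log2 difference was -6.24 for Pcdhgb2, -3.49 for Pcdhga6, -4.72 for Pcdhgb5, -4.00 for Pcdhgb7 and -3.76 for Pcdhga11. For Pcdhga5, Pcdhga7, Pcdhga8 and Pcdhga9 they were -6.31, -4.85, -7.04 and -7.29, but these genes had 1, 3, 1 and 1 counts over the G9Gl libraries, so that the fitted values depend on the prior count and are no bounds. For each of these genes the G9Gl counts were in a single library. Over pooled counts S1S2 exceeded G9Gl 110-fold for Pcdhga5 (95% counting interval 19.2 to 4388), 32.5-fold for Pcdhga7 (10.7 to 161), 180-fold for Pcdhga8 (31.8 to 7167) and 216-fold for Pcdhga9 (38.3 to 8581).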

How the results depend on the processing

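Of the alternatives tried, a filter of at least 10 counts in every library moved the number of called members by over 1.5 times, to 1 in S1S2, 2 in G9Gl and 1 between the mutants, because it leaves 5 members to test. It was also the setting that removes genes that fall in a genotype. DESeq2 called 18, 21 and 21 members, of which 17, 21 and 20 were shared with the reported calls, and leaving out each library in turn gave 17 to 19, 21 and 19 to 22. The glmTreat test against a fold of 2 called 12 members in S1S2 (3 higher and 9 lower), 21 in G9Gl and 18 between the mutants, losing Pcdhga6, Pcdhga7, Pcdhga8, Pcdhgb5, Pcdhga9 and Pcdhga11 in S1S2 and Pcdhb19 and Pcdhb20 between the mutants. A replicate block, though the numbers do not pair the libraries, called 18, 21 and 20 members, all shared, and changed no other call but that of Slc25a2 in S1S2 (adjusted p = 0.0118). Pcdhgc5 passed the fold limit between the mutants without S1S2 replicate 3, G9Gl replicate 2 or G9Gl replicate 3 (log2 -1.10, -1.05 and -1.03) and with the chromosome 18 median removed (-1.04). No result reversed. The log2 ratio of the beta sums without each library in turn ranged from -4.17 to -3.99 in S1S2, from -2.31 to -2.17 in G9Gl and from 1.76 to 1.91 between the mutants, and that of the gamma sums from 0.44 to 0.52, from -0.52 to -0.44 and from -0.98 to -0.94. Sums of the alpha cluster gave no ratio. Over all genes the reported calls numbered 1398, 1580 and 2028, against 728, 682 and 962 with at least 10 counts in every library, 868, 1162 and 1519 with glmTreat, and 7599, 7138 and 8288 at an adjusted p of at most 0.05 with no fold limit. Depth limits the alpha genes and most of Pcdhb1 to Pcdhb15 in every genotype, Pcdhb16, Pcdhb18, Pcdhb19 and Pcdhb20 in S1S2, and in G9Gl several gamma A genes, where 3 counts or fewer give wide counting intervals.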
